A study of Sus scrofa with 6 samples.

Results

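Branched-chain amino acid catabolism, the breakdown of leucine, isoleucine and valine, was examined through 10 genes in the ventricular myocardium of Tibetan minipigs. The 10 genes were taken by symbol from a list of the pathway's enzymes and regulators, out of 13288 genes in the deposited table. The table gave 9 of them by symbol. BCKDHA had no symbol there and was found through its gene identifier, so no member was absent, and all 10 reached 1 FPKM in 3 samples or more, the filter for testing. The sham group held 3 male minipigs with a thoracotomy alone. The descending aortic constriction (DAC) group held 3 male minipigs in which the descending aorta was narrowed until the pressure above the constriction reached 120% of that below it. Heart tissue was collected 12 weeks after surgery, each sample was 1 minipig, and the sources do not give the animals' age or which ventricle was sequenced. FPKM scales the fragments of a gene by transcript length and library size, so levels of different genes can be set side by side. Replicates 1 to 3 are sham and replicates 4 to 6 are DAC.

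Leucine, isoleucine and valine first lose their amino group to the mitochondrial aminotransferase, BCAT2. The resulting keto acids are then oxidized by the branched-chain keto acid dehydrogenase complex, whose E1 part is made of BCKDHA and BCKDHB, whose E2 core is DBT and whose E3 part, DLD, is shared with other complexes. This irreversible step is switched off when the kinase BCKDK phosphorylates BCKDHA and switched on again by the phosphatase PPM1K. Beyond the complex, IVD and the carboxylase of MCCC1 and MCCC2 act on the products of leucine, and HIBADH acts on those of valine. Heart muscle oxidizes these amino acids, and reduced activity of the pathway with a rise in its keto acids is known from failing hearts.

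The aminotransferase, both E1 subunits and the kinase were lower in the DAC myocardium at an unadjusted P under 0.05 from limma. The cutoff is that of the study, and limma is the test used here. The remaining 6 members did not pass this cutoff. These 4 downregulated members were BCAT2, BCKDHA, BCKDHB and BCKDK, and no member was upregulated. The 4 calls are 40.0% of the members, where 5.27% of the 11029 genes tested were called lower and 3.25% were called higher. After Benjamini-Hochberg adjustment over all genes tested, the adjusted P from limma of the members lay between 0.582 and 0.890, and no gene of the table was under 0.05. The unadjusted P of the 4 called members lay between 0.0375 and 0.0475, and an exact permutation test of 3 minipigs against 3 cannot give a two-sided P under 0.10 for any gene taken alone. The mean was lower in the DAC group for 7 of the 10 members, against 53.4% of all genes tested. The median log2 fold change of the members was -0.28, and that of all genes tested was -0.02. Each fold change is the DAC mean minus the sham mean of log2(FPKM + 1), a scale that understates the changes of genes at low FPKM. The calls lay close to the threshold: over 14 other settings of the analysis, the number of members called was between 0 and 4, while the sign of every member's fold change stayed the same.

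**Figure D1:**
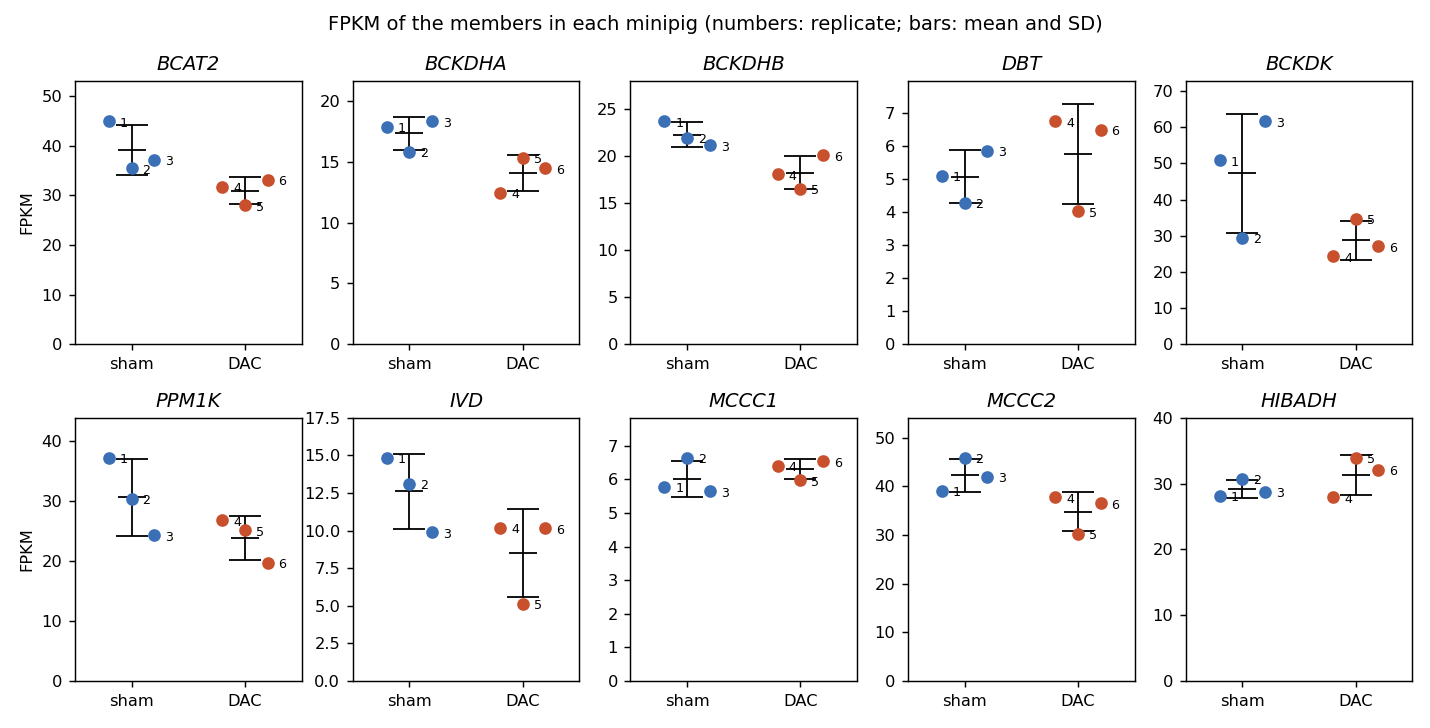
FPKM (y axis, from 0) of each member in the 3 sham and 3 DAC minipigs; points are single minipigs marked by replicate number, and bars are the mean and SD. The DAC points lie below all sham points in the panels of BCAT2, BCKDHA, BCKDHB and MCCC2, and the groups overlap in the other 6 panels.

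BCAT2 (ENSSSCG00000003139, chromosome 6 from 54107681 to 54143602 on the build susScr11) was at 45.0, 35.5 and 37.2 FPKM in sham replicates 1 to 3. In DAC replicates 4 to 6 it was at 31.7, 28.0 and 33.2 FPKM, so every DAC sample was below every sham sample. The group levels were 39.2 ± 5.07 FPKM (SD, n = 3) and 31.0 ± 2.65 FPKM (SD, n = 3), 21.0% lower with DAC. On the log2 scale the difference was -0.33 (adjusted P = 0.582 from limma, with a standard error of 0.13). Across all genes tested, 8.91% had every DAC sample below every sham sample and 6.01% had every DAC sample above. Of the 10 members, 4 had every DAC sample below every sham sample and 0 had every DAC sample above. BCAT1, the cytosolic aminotransferase, did not pass the filter, with means of 0.580 FPKM in the sham group and 0.623 FPKM in the DAC group. The mitochondrial enzyme was thus the only aminotransferase of the pathway that was tested. With 1 sample left out in turn, BCAT2 was still called without sham replicate 2 or DAC replicate 6 and was not called without any of the other 4, with the highest unadjusted P, 0.131, without sham replicate 1, which held its highest value.

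BCKDHB, the beta subunit of E1 (ENSSSCG00000004465, chromosome 1 from 85715203 to 86017600), was at 23.7, 21.9 and 21.1 FPKM in the sham samples. It was at 18.0, 16.5 and 20.1 FPKM in the DAC samples, again with no overlap. The means were 22.2 ± 1.30 FPKM (SD, n = 3) and 18.2 ± 1.77 FPKM (SD, n = 3), and the log2 fold change was -0.28 (adjusted P = 0.584 from limma, with a standard error of 0.11). BCKDHA, the alpha subunit that carries the regulatory phosphorylation (ENSSSCG00000028794, chromosome 6 from 49360795 to 49398745), was at 17.9, 15.8 and 18.4 FPKM in the sham samples. In the DAC samples it was at 12.5, 15.3 and 14.5 FPKM, and sham replicate 2 lay only slightly above DAC replicate 5. Its means were 17.3 ± 1.35 FPKM (SD, n = 3) and 14.1 ± 1.47 FPKM (SD, n = 3), a log2 fold change of -0.28 (adjusted P = 0.585 from limma, with a standard error of 0.12). The fold changes of both E1 subunits were thus of like size, 18.8% lower for BCKDHA and 18.1% lower for BCKDHB on the FPKM scale. With 1 sample left out in turn, BCKDHB was still called only without DAC replicate 6, and BCKDHA only without sham replicate 2 or DAC replicate 5. The unadjusted P of BCKDHA reached 0.134 without sham replicate 3, and that of BCKDHB reached 0.127 without sham replicate 1.

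DBT, the E2 core that holds the lipoyl groups (ENSSSCG00000006866, chromosome 4 from 117875002 to 117937561), did not pass the threshold and had the lowest level of all members. Its level was 5.11, 4.28 and 5.85 FPKM in the sham samples and 6.76, 4.02 and 6.49 FPKM in the DAC samples. DAC replicate 5 held the lowest of these values and DAC replicate 4 the highest. The log2 fold change of DBT was 0.13, with a 95% interval from -0.32 to 0.59 (adjusted P = 0.865 from limma), so neither a fall of the size seen in the E1 subunits nor a rise lay outside the interval. DLD, the shared E3 part, had means of 32.8 ± 3.27 FPKM (SD, n = 3) and 32.0 ± 0.682 FPKM (SD, n = 3) and a log2 fold change of -0.03 (adjusted P = 0.957 from limma). Within the complex, the FPKM of DBT was thus below that of both E1 subunits in every sample. The summed FPKM of BCKDHA, BCKDHB and DBT was between 42.0 and 46.7 in the sham samples and between 35.9 and 41.0 in the DAC samples.

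BCKDK, the inhibiting kinase (ENSSSCG00000007763, chromosome 3 from 17375352 to 17402204), had the largest fold change of the members and the widest spread in the sham group. It was at 50.9, 29.4 and 61.7 FPKM in the sham samples and at 24.3, 34.7 and 27.1 FPKM in the DAC samples. Sham replicate 2 lay among the DAC samples, so the groups overlapped. The means were 47.3 ± 16.5 FPKM (SD, n = 3) and 28.7 ± 5.37 FPKM (SD, n = 3), and the log2 fold change was -0.65 (adjusted P = 0.585 from limma, with a standard error of 0.27). The log2 fold change of BCKDK became -0.96 when sham replicate 2 was dropped and -0.43 when sham replicate 3 was, where the unadjusted P from limma was 0.00189 and 0.151. Of the 6 settings with 1 sample left out, BCKDK was called only without sham replicate 2 or DAC replicate 5, and it was not called when its variance was estimated on its own.

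PPM1K, the activating phosphatase (ENSSSCG00000038867, chromosome 8 from 130748259 to 130772931), was at 37.2, 30.4 and 24.3 FPKM in the sham samples and at 26.8, 25.2 and 19.7 FPKM in the DAC samples. The highest sham samples lay above all DAC samples, but sham replicate 3 was below DAC replicates 4 and 5. The log2 fold change of PPM1K was -0.34 with a 95% interval from -0.77 to 0.09 (adjusted P = 0.643 from limma), so PPM1K was not called, although it was without sham replicate 3. The ratio of kinase to phosphatase within a minipig, which does not depend on the scaling of the sample, was 1.37, 0.966 and 2.54 in the sham samples. It was 0.906, 1.38 and 1.38 in the DAC samples, inside the sham range except for DAC replicate 4. The mean log2 ratio was 0.58 ± 0.71 (SD, n = 3) and 0.26 ± 0.35 (SD, n = 3), a difference of -0.32 (two-sided exact permutation P = 0.60, adjusted over 3 ratios P = 0.90). The difference was 0.060 without sham replicate 3, so its direction depended on that sample.

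**Figure D2:**
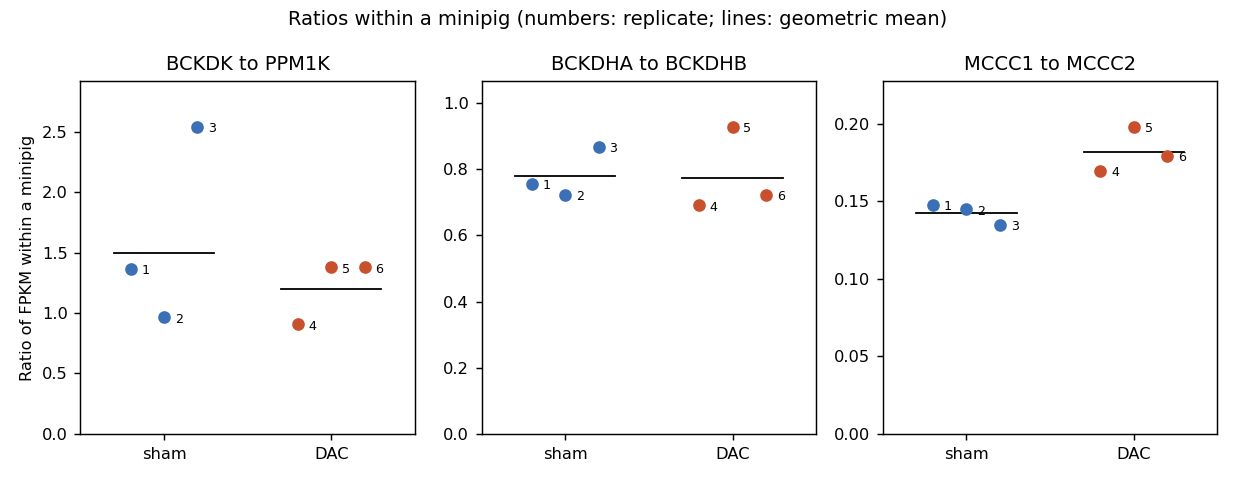
Ratio of FPKM within each minipig (y axis, from 0) for kinase to phosphatase, for the E1 subunits and for the carboxylase subunits; points are minipigs marked by replicate number and lines are geometric means. The groups overlap in the first and second panels, and in the last all DAC ratios (0.170 to 0.198) lie above all sham ratios (0.135 to 0.148).

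With all 6 samples in the fit, no enzyme of the leucine branch passed the threshold. MCCC2, the carboxylase subunit without biotin (ENSSSCG00000016971, chromosome 16 from 47917291 to 47996540), was at 39.0, 45.9 and 41.9 FPKM in the sham samples and at 37.8, 30.2 and 36.5 FPKM in the DAC samples. The groups did not overlap, the means were 42.3 ± 3.42 FPKM (SD, n = 3) and 34.8 ± 4.06 FPKM (SD, n = 3), and the log2 fold change was -0.28 (adjusted P = 0.596 from limma). MCCC2 was called without DAC replicate 4. MCCC1, the biotin-bearing subunit of the same enzyme (ENSSSCG00000025942, chromosome 13 from 120912828 to 121106666), was at 5.77, 6.64 and 5.65 FPKM in the sham samples and at 6.40, 5.97 and 6.54 FPKM in the DAC samples. Its samples were mixed between the groups, and its log2 fold change was 0.06 with a 95% interval from -0.19 to 0.31 (adjusted P = 0.890 from limma). The ratio of MCCC1 to MCCC2 was 0.148, 0.145 and 0.135 in the sham samples and 0.170, 0.198 and 0.179 in the DAC samples. The mean log2 ratio differed by 0.35 between the groups, with an exact permutation P of 0.10, the smallest two-sided value that 3 minipigs against 3 allow, and an adjusted P of 0.30 over the 3 ratios. For BCKDHA to BCKDHB, the mean log2 ratio differed by -0.01 (exact permutation P = 1), with ratios from 0.722 to 0.868 in the sham samples and from 0.690 to 0.927 in the DAC samples.

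IVD, the dehydrogenase ahead of that carboxylase (ENSSSCG00000004774, chromosome 1 from 130893983 to 130940350), was at 14.8, 13.1 and 9.90 FPKM in the sham samples. It was at 10.2, 5.12 and 10.2 FPKM in the DAC samples, where DAC replicate 5 stood lowest and sham replicate 3 was below the other DAC samples. The log2 fold change of IVD was -0.56 with a 95% interval from -1.18 to 0.06 (adjusted P = 0.596 from limma). It was -0.27 without DAC replicate 5, and IVD was called without sham replicate 3, at -0.71, or without DAC replicate 6, at -0.70. HIBADH, the member of the valine branch (ENSSSCG00000016695, chromosome 18 from 44985425 to 45208347), was at 28.1, 30.7 and 28.8 FPKM in the sham samples and at 28.0, 33.9 and 32.1 FPKM in the DAC samples. HIBADH spread least of the members in the sham group, with a coefficient of variation of 4.61%, and its log2 fold change was 0.09 with a 95% interval from -0.17 to 0.36 (adjusted P = 0.825 from limma).

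**Figure D3:**
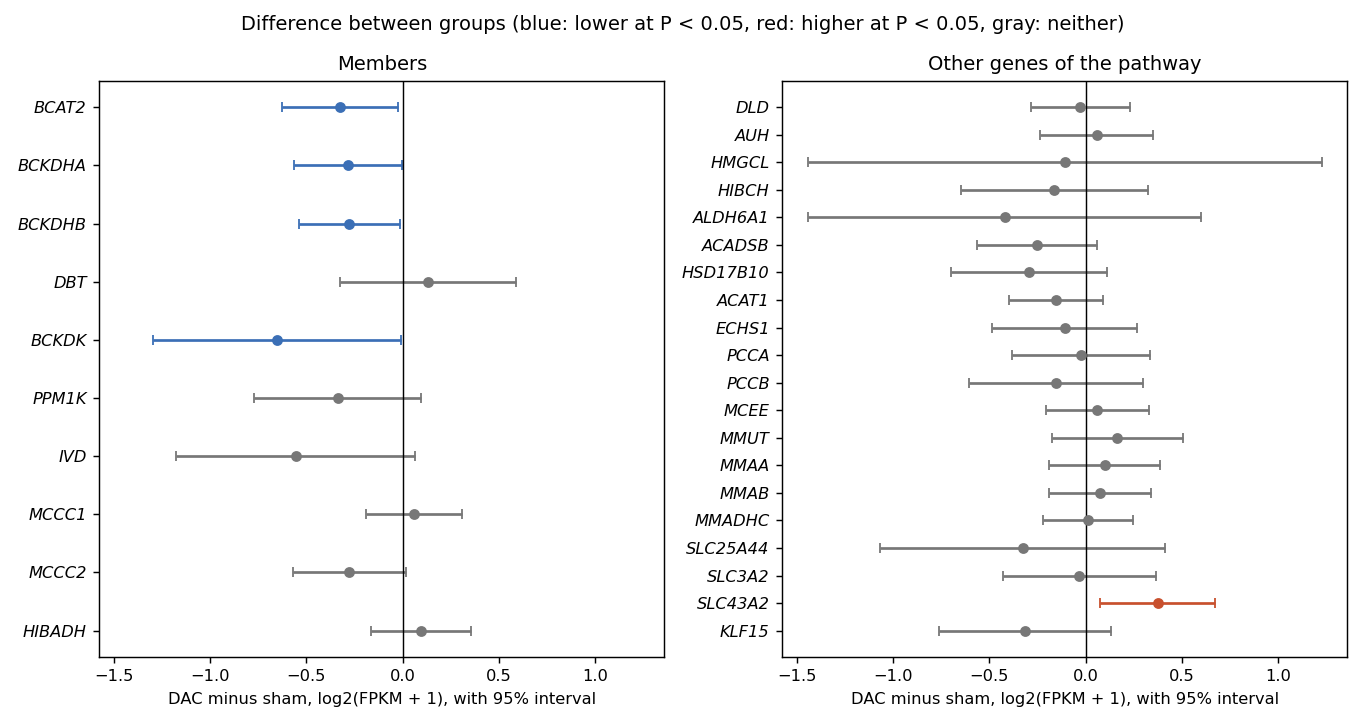
Difference between the DAC and sham means on the log2(FPKM + 1) scale (x axis) with its 95% interval, for the 10 members and for the 20 tested other genes of the pathway. The intervals of BCAT2, BCKDHA, BCKDHB and BCKDK end just below 0, that of SLC43A2 lies above 0, and all others include 0.

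The members covered a wide range of levels. In the sham group the means ran from 5.08 FPKM for DBT to 47.3 FPKM for BCKDK, and the members' median percentile of level was 85.2 among all genes tested. In the sham order of BCKDK, MCCC2, BCAT2, PPM1K and HIBADH, the range of each gene overlapped that of the next. Genes further apart could be separated, as the lowest sham value of MCCC2, 39.0 FPKM, was above the highest of PPM1K, 37.2 FPKM. HIBADH, BCKDHB, BCKDHA, IVD and MCCC1 then followed each other without overlap, and MCCC1 and DBT overlapped. In the DAC group MCCC2 came first and BCKDK was at place 4, but the ranges of MCCC2, HIBADH, BCAT2 and BCKDK overlapped, so these places were not separated. The summed FPKM of the 10 members was 268, 234 and 255 in the sham samples and 202, 199 and 206 in the DAC samples. All DAC sums were below all sham sums, and of the single members BCKDK had the largest difference in mean FPKM. By minipig, DAC replicate 5 held the lowest value of all 6 samples in 5 members and DAC replicate 4 in 3. The value was below the sham mean on the log2 scale in 8 members for DAC replicate 4, in 9 for DAC replicate 5 and in 7 for DAC replicate 6.

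**Figure D4:**
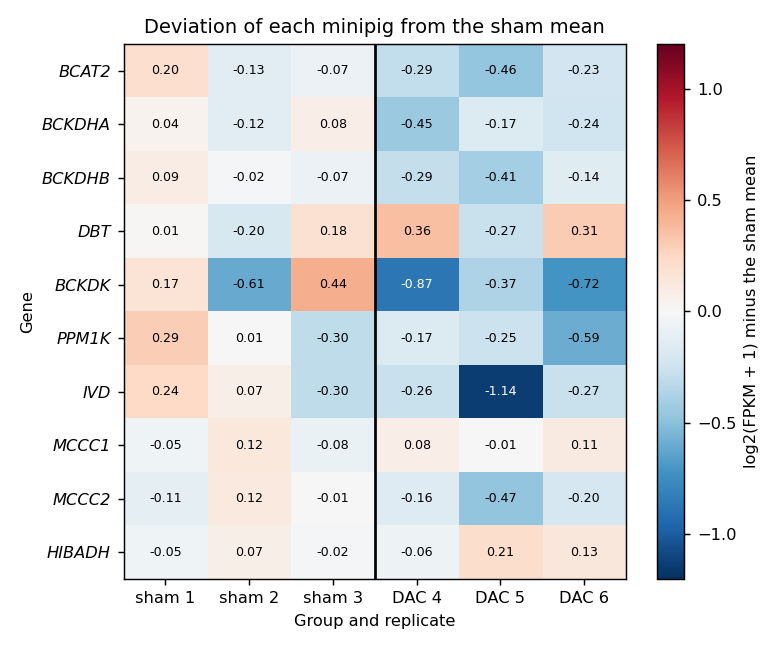
Deviation of each minipig from the sham mean on the log2(FPKM + 1) scale (color and printed value) for the 10 members (rows) in the 6 samples (columns). Most DAC cells are blue, with IVD in DAC replicate 5 the lowest, while DBT and MCCC1 in DAC replicates 4 and 6 and HIBADH in DAC replicates 5 and 6 are above the sham mean.

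Of 26 other genes of the pathway, 23 were found in the table and 20 were tested. Of these 20, 1 was called (5.0%, against 8.51% of all genes tested). SLC43A2, a plasma membrane carrier of large neutral amino acids, was upregulated, from 1.53, 1.41 and 1.52 FPKM in the sham samples to 2.64, 2.25 and 1.82 FPKM in the DAC samples. All DAC samples were above all sham samples, the mean FPKM was 50.8% higher with DAC, and the log2 fold change of SLC43A2 was 0.37 (adjusted P = 0.546 from limma, with a standard error of 0.13). The 20 genes had a median log2 fold change of -0.07, and in 13 of them the DAC mean was the lower one. ACADSB, HSD17B10 and ACAT1 of the isoleucine branch all had lower means, and for each of them the groups overlapped. Their log2 fold changes were -0.25, -0.29 and -0.15, with adjusted P from limma of 0.630, 0.655 and 0.701. ALDH6A1 and HIBCH of the valine branch also had lower means, with overlapping groups. Their log2 fold changes were -0.42 and -0.16, with adjusted P from limma of 0.792 and 0.843. Of the 7 genes that carry propionyl-CoA, the end product of isoleucine and valine, into the citrate cycle, 5 had a higher mean, and their log2 fold changes lay between -0.16 and 0.17. KLF15, a transcription factor known to drive genes of this pathway in the heart, had a sham level of 21.4 ± 5.54 FPKM (SD, n = 3) and a DAC level of 16.7 ± 1.67 FPKM (SD, n = 3), with an adjusted P of 0.661 from limma. SLC25A44, the mitochondrial carrier of branched-chain amino acids, was at 8.50, 2.90 and 3.72 FPKM in the sham samples and at 3.71, 3.79 and 2.94 FPKM in the DAC samples, so 1 sham sample set its higher sham mean. ACAD8, SLC7A5 and SLC43A1 were not found by symbol, and ABAT and SLC7A8 did not pass the filter.

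The pyruvate and 2-oxoglutarate dehydrogenases are built like the branched-chain complex and share DLD with it. Of 13 genes of these complexes with their kinases and phosphatases, 1 was called (7.69%, against 8.51% of all genes tested), and their median log2 fold change was -0.04. OGDH, the E1 part of the 2-oxoglutarate complex, was downregulated, with a log2 fold change of -0.31 (adjusted P = 0.511 from limma). The other 12 did not pass the threshold, with log2 fold changes from -0.76 to 0.34. The kinases of the pyruvate complex, the counterparts of BCKDK, had log2 fold changes of 0.29 for PDK1, -0.02 for PDK2, 0.11 for PDK3 and -0.76 for PDK4. PDK4 spread widely with DAC, at 52.6, 138 and 27.3 FPKM against 117, 85.6 and 99.3 FPKM in the sham samples. The phosphatase subunits PDP1, PDP2 and PDPR, on the side of PPM1K, had log2 fold changes of -0.04, 0.34 and -0.06, and the adjusted P from limma of these 7 regulators lay between 0.596 and 0.972. The E1 subunits of the pyruvate complex, PDHA1 and PDHB, had log2 fold changes of 0.05 and -0.07 with adjusted P from limma of 0.952 and 0.882. Whether the members differ from these genes was not tested.

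Several measures moved with the groups. The share of all FPKM taken by the 13 mitochondrially encoded genes ran from 24.0% to 25.3% in the sham samples and from 27.1% to 32.8% in the DAC samples, with DAC replicate 5 highest. After these genes were removed and each sample was scaled again, the log2 fold changes were -0.28 for BCAT2, -0.24 for BCKDHA, -0.24 for BCKDHB and -0.61 for BCKDK, and none of the 4 was called (unadjusted P from limma between 0.0589 and 0.0760). Of the 7 fibroblast markers, 5 were upregulated, and the summed FPKM of the 7 was between 476 and 550 in the sham samples and between 683 and 772 in the DAC samples. The summed FPKM of the 6 cardiomyocyte markers found was between 11266 and 12630 in the sham samples and between 11044 and 14024 in the DAC samples. MYL2, TNNT2 and MYH7 weighed most in this sum, with sham means of 4525, 4387 and 1903 FPKM. The log2 mean was lower with DAC for 3 of the 6 and higher for 3. RYR2 was called lower. ACTN2 was not called, but had every DAC sample below every sham sample, as had 8.91% of all genes tested. Of the 6 endothelial markers, VWF and CLDN5 were called lower and KDR higher, and their sum was between 107 and 153 in the sham samples and between 99.5 and 142 in the DAC samples. The sums of the smooth muscle, leukocyte, adipocyte and red blood cell markers overlapped between the groups. Among these, CNN1 of the smooth muscle list was called higher and CD163 of the leukocyte list lower. None of the 6 skeletal muscle markers was found by symbol. In such bulk tissue, fewer cells of a type and less RNA per cell cannot be told apart, and the part of these measures in the members' results was not tested.

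The listed positions of 5 members, BCKDHA, DBT, BCKDK, IVD and MCCC1, overlap those of other listed genes, and the sources do not say how shared reads were assigned or whether strand was used. RTCA, on the strand opposite to DBT, had means of 11.9 FPKM (sham) and 12.7 FPKM (DAC), above the 5.08 and 5.76 FPKM of DBT. The other overlapping genes had lower means than their member. DISP2 overlaps the span listed for IVD and MCF2L2 that of MCCC1, both on the same strand as the member. MCF2L2 was not called, with means of 1.22 FPKM (sham) and 0.800 FPKM (DAC). DISP2 did not pass the filter, and its highest value was 1.53 FPKM, in sham replicate 3. Listed spans ran past the RefSeq gene for several members. That of BCKDK ended at 17402204, where the RefSeq gene ends at 17380925. That of BCAT2 ended at 54143602, where the RefSeq gene ends at 54123595. BCKDHB, DBT, IVD, MCCC1 and HIBADH also had spans that extended beyond RefSeq. The span listed for BCKDHA starts ahead of the RefSeq gene, which begins at 49381995. It overlaps EXOSC5 and B9D2 on the opposite strand. EXOSC5 was not called, with means of 4.73 FPKM (sham) and 4.11 FPKM (DAC). B9D2 was called lower, with means of 1.51 FPKM in the sham group and 0.783 FPKM in the DAC group. It passed the filter of 1 FPKM only through the sham samples, since every DAC sample was under 1 FPKM. The bearing of its call on BCKDHA was not tested. ZNF646, which overlaps the span listed for BCKDK on the same strand, was not called, with means of 3.22 FPKM (sham) and 2.75 FPKM (DAC). ENSSSCG00000035364, which overlaps that span on the opposite strand, was not called either, with means of 2.58 FPKM (sham) and 2.37 FPKM (DAC). Whether shared reads entered the values of the members was not tested. Among the 5 members with no such overlap (BCAT2, BCKDHB, PPM1K, MCCC2 and HIBADH), 2 were called lower and the median log2 fold change was -0.28. Of all genes tested, 5.27% were called lower.

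**Figure D5:**
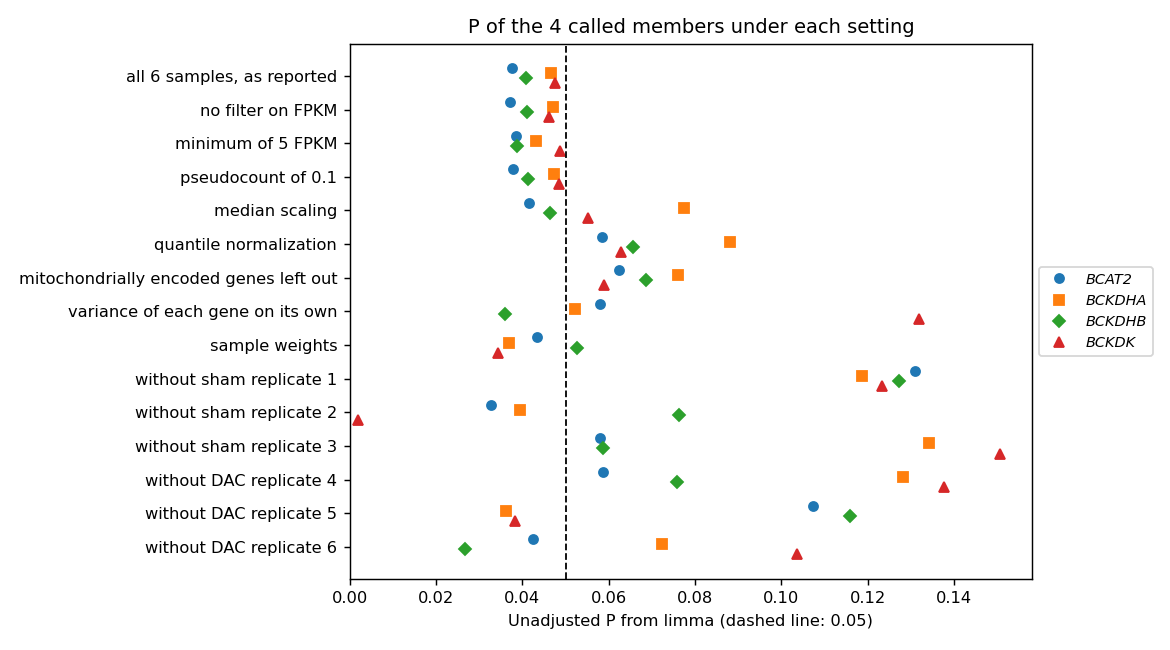
Unadjusted P from limma (x axis, dashed line at 0.05) of the 4 called members under the reported analysis and 14 other settings (rows). In the reported analysis all 4 lie between 0.0375 and 0.0475, and all 4 lie above 0.05 when sham replicate 1, sham replicate 3 or DAC replicate 4 is dropped, when mitochondrially encoded genes are removed and after quantile normalization.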

How the data were processed

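The authors deposited FPKM per gene for the ventricular tissue of 3 sham and 3 DAC minipigs, 1 column per minipig. The NEBNext Ultra kit was used on 3 µg of total RNA, and paired ends of 125 or 150 bp were read on an Illumina HiSeq. The submitters' processing notes name HISAT2 and susScr11, and the quantification program is not given in the sources used here. Each listed gene reached at least 0.500 FPKM in 1 sample. Depth is unknown, since FPKM holds no read numbers. Precision comes from the spread between minipigs, which the moderated test pulls toward the trend over all genes tested.

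Genes without a symbol were named from a table of gene identifiers (520 of 2440). The rest stayed without a symbol, so a gene not found by symbol could be among them. Positions are the table's own. Log2(FPKM + 1) was compared with limma 3.58.1 in R 4.3.3 (moderated test, trend of the variance over the mean) over the 11029 genes with at least 1 FPKM in 3 samples. Genes with an unadjusted P under 0.05, the threshold of the study, were called, with Benjamini-Hochberg adjustment over the 11029 genes. Within-minipig ratios used an exact permutation test. Figures used Python 3.11.15 and matplotlib 3.10.9.

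The members, the lists and the rule for named genes (all members, and other pathway or sister complex genes with an unadjusted P under 0.05 or, where none passed, up to 5 with the smallest P) were chosen with earlier results of these data known. Further genes, such as DLD, KLF15 and the subunits and regulators of the pyruvate complex, are named for their role after their values were seen. The settings tried instead were a pseudocount of 0.1, quantile normalization, no filter or a minimum of 5 FPKM, scaling to the median, mitochondrially encoded genes left out, the variance of each gene on its own, sample weights and each sample left out. No sequences were used.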

Additional observations from a re-analysis of the deposited data

How the results depend on the processing

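All 10 members kept the sign of their log2 fold change under the 14 other settings, and the median of the members stayed between -0.31 and -0.23. The number of members called, 4 in the reported analysis, was 2 after median scaling (BCAT2 and BCKDHB), 0 after quantile normalization, 0 with mitochondrially encoded genes left out and 1 with the variance of each gene on its own (BCKDHB). When single samples were left out it ranged from 0 (without sham replicate 1) to 3. It was 2 without sham replicate 3 (PPM1K and IVD), 1 without DAC replicate 4 (MCCC2) and 2 without DAC replicate 5 (BCKDHA and BCKDK). Of the 5 members with no overlapping gene, a selection made after seeing the data, 2 were called. BCAT2 was called in 7 of the 14 settings, and BCKDHA, BCKDHB and BCKDK in 6 each. Their P from limma lay between 0.0327 and 0.131, 0.0361 and 0.134, 0.0267 and 0.127, and 0.00189 and 0.151, respectively. The number of other pathway genes called, 1 as reported, was 0 with a minimum of 5 FPKM, which removed SLC43A2 from the test, and between 0 (without DAC replicate 4) and 3 (without DAC replicate 5) with 1 sample left out. The difference in the log2 ratio of BCKDK to PPM1K was between -0.64 (without sham replicate 2) and 0.060 (without sham replicate 3, the opposite sign). The cause of these changes was not tested. Over all genes, 44.8% of the calls were lower in the DAC group with mitochondrially encoded genes left out, against 61.9% as reported. The number of genes called, 939 as reported, was 579 of 6271 genes tested with a minimum of 5 FPKM, 595 without sham replicate 1, 625 without sham replicate 3 and between 817 and 1057 in the other settings. Depth is unknown, so what it limits could not be assessed. No paired analysis was possible because the groups share no replicate numbers.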
